A study of Mus musculus with 6 samples.

Results

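Collagens are trimeric proteins of the extracellular matrix, and only some of them build the banded fibrils that give dentin and bone their strength. The genes described here encode the other chains, which form the sheets of basement membranes (type IV), beaded filaments around cells (type VI), anchoring fibrils under epithelia (type VII), hexagonal lattices (types VIII and X), molecules that decorate fibrils (the fibril-associated collagens, FACIT) and membrane-spanning molecules (types XIII, XVII, XXIII and XXV). In a tooth germ they lie in the basement membrane between the inner dental epithelium and the dental papilla, around the vessels and nerves of the pulp and between its mesenchymal cells, whereas dentin itself is made mostly of type I collagen secreted by odontoblasts. The members were chosen by name, as every protein-coding gene of the deposited table called Col, a number, a and a number, less the 10 fibrillar chains of types I, III, V, XI, XXIV and XXVII. The rule gave 34 genes of 44 collagen chains and of 31613 genes in all. It kept *Col2a1*, the fibril-forming chain of cartilage, so that 1 of the 34 is not a non-fibrillar chain by structure.

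The cells compared were mouse dental papilla cells (mDPCs), the mesenchyme that lies under the enamel organ of a developing tooth, isolated at postnatal day 6 from *Dmp1*-Cre;*Setd2* fl/fl mice (called cKO below) and mDPCs of control mice of the same age. Both were on a C57BL/6J background and of the same sex. SETD2 places the trimethyl mark on lysine 36 of histone H3, and *Dmp1*-Cre removes *Setd2* chiefly in the odontoblast layer, while the RNA came from every cell collected. The labels call the controls wild type, and the study's methods give *Setd2* fl/fl mice as controls. Each genotype had 3 RNA sequencing libraries, made from RNA that had been pooled over 3 biological replicates. Because the mice listed for the collection are fewer than the pools would need, the same mouse may be in more than 1 pool, and the p-values rest on a spread between libraries that may be technical in part. *Setd2* itself had 102, 98.4 and 95.9 CPM in cKO libraries, against 97.8, 96.3 and 91.8 CPM in control libraries. CPM are counts scaled to a common library size, after adjusting that size by TMM, the trimmed mean of M-values. That count spans the whole gene and all cells and so is no check of the genotypes.

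The libraries held 18557647 to 19210750 counts. Replicate 3 of both genotypes stood apart from replicates 1 and 2, so results that rest on it are given with and without it. Control replicates 1 and 2 were the closest libraries, at a chi-square per degree of freedom between their counts of 5.68, where larger is further apart. They stood at 47.3 and 54.4 to control replicate 3. For cKO replicates 1 and 2 it was 30.4, against 118 and 172 to cKO replicate 3. The latter stood closer to every control library, at 90.6, 102 and 47.6 to control replicates 1, 2 and 3. Fits without replicate 3 of both genotypes rest on the spread between replicates 1 and 2, which were closer to each other. The p-values of those fits may therefore be too small. Of 10 odontoblast markers tested, 7 were lower in cKO mDPCs at the study's thresholds, given below, where 2.71% of all genes were lower. The list holds *Dspp*, *Dmp1*, *Wisp1*, *Sall1* and *Phex*, which the study reported as lower in these same data. The count is thus no independent check. The list summed to 2163 to 8858 CPM in cKO libraries and 18390 to 18740 CPM in control libraries. The same 7 were called without cKO replicate 3, when the median log2 fold change of the 10 was -1.93 in place of -1.33. They were also called without replicate 3 of both genotypes (-1.92). In those fits 6.89% and 7.55% of all genes were lower. In bulk samples, fewer cells of a type and less RNA per cell cannot be told apart. Of 8 neutrophil markers 5 were tested and 2 were higher, where 1.1% of all genes were higher. The list summed to 68.4, 137 and 5.64 CPM in cKO replicates 1, 2 and 3, against 21.0, 12.2 and 4.59 CPM in control replicates 1, 2 and 3. Markers of skeletal muscle summed to 1.80 to 2.28 CPM in cKO libraries and 1.89 to 2.38 CPM in control libraries.

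No non-fibrillar chain was called different between the genotypes. Genes with very low counts were left out by a filter, and 31 of the 34 chains passed it. They were compared by the quasi-likelihood F test of edgeR, and a gene was called at the study's thresholds, an unadjusted p under 0.05 together with a change of 0.58 or more either way on the log2 scale. By these thresholds 0 of 31 chains were lower in cKO mDPCs, where 2.71% of all 16519 genes tested were lower, and 0 of 31 were higher, where 1.1% of all genes were higher. An unadjusted p under 0.05 of any size of change was reached by 0 chains, against 4.41% of all genes in the lower and 3.17% in the higher direction. Adjusted p-values (Benjamini-Hochberg, over all genes tested) ran from 0.666 to 0.984 across the chains, and 0.0% of all genes passed an adjusted p of 0.05 in either direction. DESeq2 called 0 chains as well (1.57% of all genes lower, 0.864% higher). These shares are over 31599 genes, rare ones included, and stand for 496 and 273 genes, against 448 and 181 by edgeR. Limma voom with quality weights called *Col20a1* lower, where 6.67% of all genes were lower, and *Col8a1* and *Col8a2* higher, where 2.69% were higher.

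The chains lay on both sides of 0, with 15 negative and 16 positive log2 fold changes, and 47.4% of all genes were negative. Their median log2 fold change was 0.02, as was the median over all genes tested. In 30 of the 31 chains the ranges of the genotypes overlapped. The exception was *Col4a4*, with all cKO libraries below all controls, which is 3.23% of the chains and was seen in 7.98% of all genes. No chain had all cKO libraries above all controls (7.26% of all genes). The error limits what a lack of calls can say. The 95% interval of the log2 fold change lay within 0.58 of 0 for 4 chains, *Col6a1*, *Col6a2*, *Col23a1* and *Col26a1*, and within 1 of 0 for 13.

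**Figure D1:**
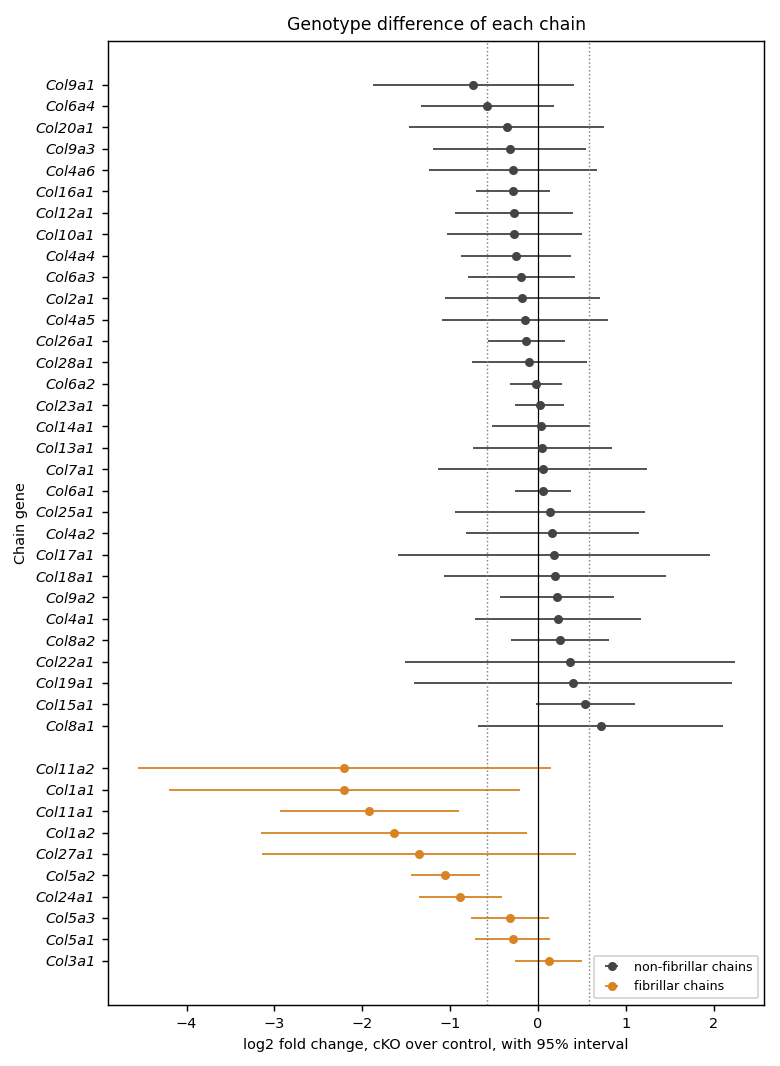
Genotype difference of each chain. The horizontal axis gives the log2 fold change of cKO over control libraries with its 95% interval (bars) for 31 non-fibrillar chains (dark) and 10 fibrillar chains (orange), 3 libraries per genotype; dotted lines mark 0.58 either way. Every non-fibrillar interval spans 0, whereas 5 fibrillar chains passed the study's thresholds on the lower side.

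The fibrillar chains of the same libraries differed. All 10 were tested, 5 were lower in cKO mDPCs at the study's thresholds (*Col1a1*, *Col1a2*, *Col5a2*, *Col11a1* and *Col24a1*), 0 were higher, and the median log2 fold change was -1.20. In 7 of them all cKO libraries lay below all controls, as in 7.98% of all genes. Without cKO replicate 3 the lower calls were 7 (*Col11a2* and *Col27a1* added) and the median was -1.91. Without replicate 3 of both genotypes they were the same 7 with a median of -1.92. Over all genes, 2.71% were lower with all libraries, and 6.89% and 7.55% in these fits. Summed over the chains, the non-fibrillar genes had 5911, 5288 and 6859 CPM in cKO replicates 1, 2 and 3, against 5174, 5671 and 7067 CPM in control replicates 1, 2 and 3. The fibrillar genes summed to 13490, 10980 and 55000 CPM in cKO libraries, against 87930, 89340 and 107400 CPM in control libraries. The non-fibrillar sums thus overlapped between genotypes and the fibrillar sums did not. *Col1a1* and *Col1a2* carried most of the fibrillar sums, with 54080 and 26290 of 87930 CPM in control replicate 1. *Col3a1*, *Col5a1* and *Col5a3* overlapped between genotypes (log2 fold changes 0.12, -0.29 and -0.32). Adjusted p-values of the fibrillar chains ran from 0.450 to 0.856 by edgeR. As a share of all collagen counts, the non-fibrillar chains made up 30.5%, 32.5% and 11.1% in cKO replicates 1, 2 and 3, against 5.56%, 5.97% and 6.17% in control replicates 1, 2 and 3. The mean share was 24.7% ± 11.8 in cKO and 5.90% ± 0.314 in control libraries (SD, n = 3 each), a difference of 18.8 percentage points, which was 25.6 points without cKO replicate 3 and 25.7 points without replicate 3 of both genotypes. All cKO libraries were above all controls, which with 3 against 3 libraries allows no two-sided exact permutation p under 0.1. As a share of the whole library, the same chains took 0.654%, 0.538% and 0.660% in cKO, against 0.515%, 0.562% and 0.661% in control libraries.

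**Figure D2:**
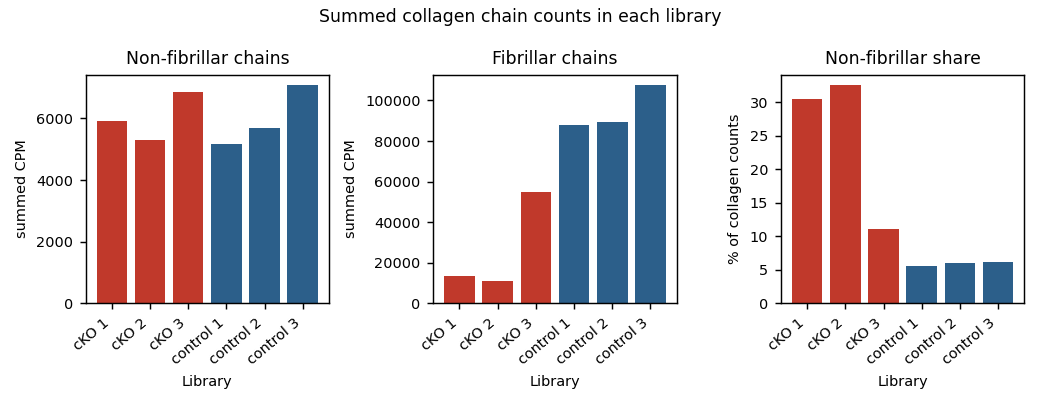
Summed collagen chain counts in each library. Bars give the summed CPM of the 34 non-fibrillar chains (left), the summed CPM of the 10 fibrillar chains (middle) and the non-fibrillar share of all collagen counts in percent (right), with cKO libraries in red and control libraries in blue. Non-fibrillar sums run from 5288 to 6859 CPM in cKO and from 5174 to 7067 CPM in control libraries, while the share is 11.1% to 32.5% in cKO and 5.56% to 6.17% in control libraries.

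Types VIII and IX hold the 2 chains that were called when libraries were compared by replicate number, as described below, and for this reason the 250 bases before their RefSeq transcription starts are shown (GRCm38.p6, 5′ to 3′ on the gene's strand). Capitals mark matches on either strand to a TATA box, a CCAAT box or a GC box, whose letters are given after the sequences. *Col9a1*, on the plus strand of chromosome 1, has an upstream start and an internal one that gives a shorter form of the chain.
Col9a1 upstream start, chr1:24177360-24177609: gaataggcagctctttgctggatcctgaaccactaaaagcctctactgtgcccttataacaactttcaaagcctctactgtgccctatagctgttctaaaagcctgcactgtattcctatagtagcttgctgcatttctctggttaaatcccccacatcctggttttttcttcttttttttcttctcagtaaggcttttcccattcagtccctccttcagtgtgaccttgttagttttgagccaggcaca
Col9a1 internal start, chr1:24194953-24195202: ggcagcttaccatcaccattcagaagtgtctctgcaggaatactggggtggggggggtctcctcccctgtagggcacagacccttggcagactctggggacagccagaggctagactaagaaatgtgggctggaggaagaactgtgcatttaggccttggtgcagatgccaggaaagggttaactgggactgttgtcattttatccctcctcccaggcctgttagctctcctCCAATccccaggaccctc
Col9a2, plus strand, chr4:121039316-121039565: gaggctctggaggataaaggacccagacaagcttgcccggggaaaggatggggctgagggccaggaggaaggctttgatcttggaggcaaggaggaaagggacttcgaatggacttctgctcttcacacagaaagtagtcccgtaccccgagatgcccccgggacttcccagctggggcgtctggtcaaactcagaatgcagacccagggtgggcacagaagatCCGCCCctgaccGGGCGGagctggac
Col8a1, minus strand, chr16:57754738-57754987: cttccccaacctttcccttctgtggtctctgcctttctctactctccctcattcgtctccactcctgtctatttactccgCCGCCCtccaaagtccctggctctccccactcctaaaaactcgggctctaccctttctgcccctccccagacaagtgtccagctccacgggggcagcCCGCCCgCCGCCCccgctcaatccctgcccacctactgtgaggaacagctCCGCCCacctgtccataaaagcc
Col8a2, plus strand, chr4:126286544-126286793: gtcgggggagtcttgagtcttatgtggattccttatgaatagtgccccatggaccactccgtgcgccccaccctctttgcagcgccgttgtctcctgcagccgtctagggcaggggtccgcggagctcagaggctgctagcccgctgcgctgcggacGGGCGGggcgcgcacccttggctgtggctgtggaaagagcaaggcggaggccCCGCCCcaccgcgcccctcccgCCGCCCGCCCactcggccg

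The letters searched on both strands were TATAAA for the TATA box, CCAAT for the CCAAT box and GGGCGG for the GC box. The upstream window of *Col9a1* held none of the 3 motifs and had a GC content of 43.6%, and its internal window held 1 CCAAT box at a GC content of 56.0%. The window of *Col9a2* held 2 GC boxes (60.4% GC). Both type VIII windows held 4 GC boxes, at 60.8% GC for *Col8a1* and 70.0% GC for *Col8a2*, and a pair of those of *Col8a2* overlap. RefSeq gave 30 windows for 27 of the 34 chains, with a median GC content of 58.2% against 52.4% over all 32851 windows. A GC box was present in 16 of the 30 windows (53.3%) and in 32.7% of all windows. CCAAT boxes were in 10 (33.3%, all windows 33.8%) and TATA boxes in 3 (10.0%, all windows 12.4%). These are letter matches and not mapped binding sites.

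Divided by the length of the gene's exons, the type IX chain *Col9a2* had the highest level of all members in each of the 6 libraries. It stood at 286 ± 97.9 CPM per kilobase in cKO and 246 ± 34.7 CPM per kilobase in control libraries (SD, n = 3 each, as for the other levels per kilobase). The transmembrane chain *Col23a1* followed with 95.3 ± 9.07 in cKO and 94.1 ± 1.30 CPM per kilobase in control libraries, and the type VI chain *Col6a1* had 92.5 ± 9.74 and 88.9 ± 9.61 CPM per kilobase in cKO and control libraries. *Col23a1* and *Col6a1* did not differ beyond their spread. The basement membrane chain *Col4a1* came next with 70.8 ± 35.8 in cKO and 60.4 ± 21.9 CPM per kilobase in control libraries, and in the control libraries *Col12a1*, *Col16a1*, *Col4a2* and *Col6a2* followed at 58.2 to 47.8 CPM per kilobase, within the spread of their neighbours. At the low end *Col10a1*, *Col6a4*, *Col19a1* and *Col4a4* had 0.185, 0.143, 0.167 and 0.0690 CPM per kilobase in cKO libraries, against 0.224, 0.214, 0.127 and 0.0820 CPM per kilobase in control libraries.

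**Figure D3:**
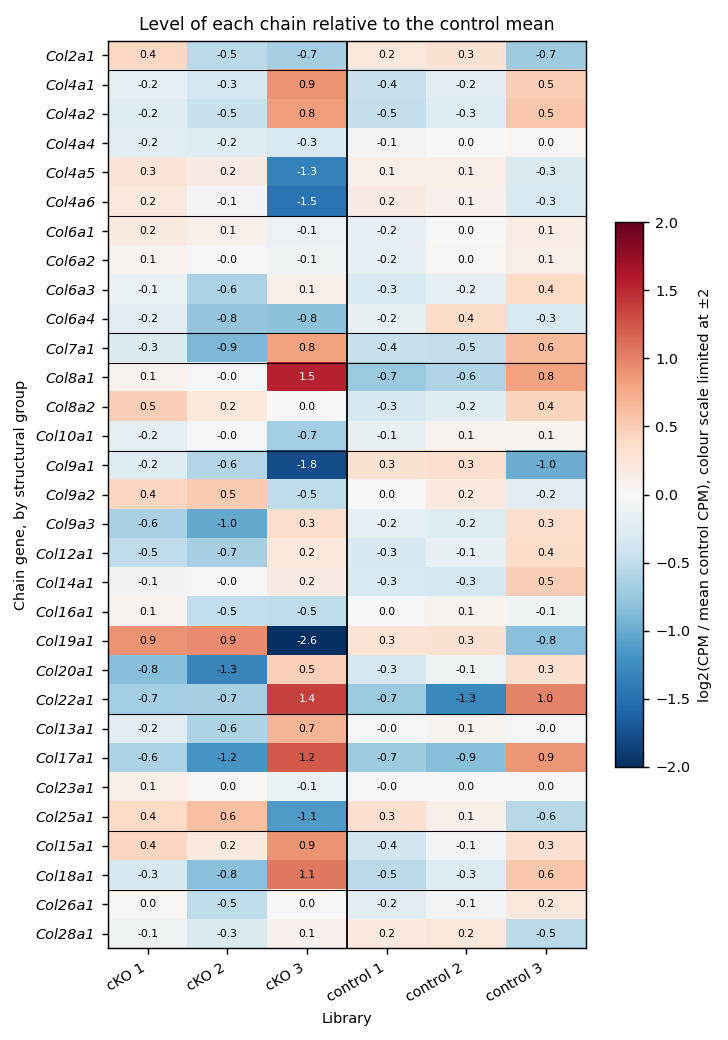
Level of each chain relative to the control mean. Rows are the 31 chains tested, grouped by structure, and columns are the 6 libraries; colour and number give log2 of CPM over the mean control CPM. Columns of replicate 3 in both genotypes are mostly of one colour for a chain, for example *Col17a1* and *Col22a1* high and *Col19a1* and *Col9a1* low.

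Type IV collagen is the scaffold of basement membranes. *Col4a1* and *Col4a2*, whose chains form the type IV molecule found in nearly all basement membranes, lie head to head on chromosome 8 on opposite strands, overlapping by 22 bases. *Col4a1* had 393, 356 and 836 CPM in cKO replicates 1, 2 and 3, against 330, 385 and 637 CPM in control replicates 1, 2 and 3. *Col4a2* had 300, 259 and 632 CPM in cKO libraries, against 254, 295 and 513 CPM in control libraries. Both were highest in replicate 3 of either genotype and overlapped between genotypes, with log2 fold changes of 0.23 (SE 0.39) and 0.16 (SE 0.41). Their ratio per kilobase was nearly fixed, at 1.26, 1.32 and 1.27 in cKO and 1.25, 1.25 and 1.19 in control libraries, and counting without strand cannot assign reads of the shared bases.

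*Col4a5* and *Col4a6*, neighbours on chromosome X with 1308 bases between them, encode the chains of a type IV molecule of selected basement membranes such as those of skin and smooth muscle. *Col4a5* had 72.9, 68.1 and 23.9 CPM in cKO libraries, against 66.3, 66.5 and 50.0 CPM in control libraries. *Col4a6* had 26.4, 22.3 and 8.30 CPM in cKO libraries, against 26.0, 24.6 and 18.7 CPM in control libraries. Opposite to *Col4a1* and *Col4a2*, both were lowest in replicate 3, most of all in cKO replicate 3. Their log2 fold changes were -0.15 (SE 0.40) and -0.28 (SE 0.40), and the ratio of *Col4a5* to *Col4a6* per kilobase kept to 2.36 to 2.61 in cKO and 2.18 to 2.30 in control libraries.

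*Col4a3* and *Col4a4*, head to head on chromosome 1 with 71 bases between them, encode chains of the type IV molecule of the kidney filter. *Col4a3* had only 2 to 6 counts per cKO library and 4 to 6 per control library and was not tested. *Col4a4* had 17, 15 and 14 counts in cKO libraries, against 17, 18 and 17 counts in control libraries. After scaling this gave 0.812, 0.794 and 0.759 CPM in cKO and 0.900, 0.946 and 0.962 CPM in control libraries, the one set of ranges without overlap. At such counts the difference was not beyond error (log2 fold change -0.25, SE 0.27, unadjusted p = 0.400 by edgeR).

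Type VI collagen forms beaded filaments close to cell surfaces, each molecule holding the chains of *Col6a1*, *Col6a2* and *Col6a3* or, in place of the last, one of *Col6a4*, *Col6a5* and *Col6a6*. *Col6a1* had 586, 560 and 477 CPM in cKO libraries, against 462, 524 and 574 CPM in control libraries. *Col6a2* had 550, 511 and 492 CPM in cKO libraries, against 462, 538 and 575 CPM in control libraries. Both moved within a narrow band, with log2 fold changes of 0.06 (95% interval -0.27 to 0.38) and -0.02 (-0.32 to 0.27), among the most tightly bounded of all members. *Col6a3* was more uneven, with 363, 258 and 432 CPM in cKO libraries, against 322, 348 and 530 CPM in control libraries (log2 fold change -0.19, SE 0.26). Per kilobase *Col6a1* stood at 1.82 to 2.06 times *Col6a2* in cKO and 1.83 to 1.88 times in control libraries, and *Col6a3* at 0.223 to 0.439 times *Col6a1* in cKO and 0.322 to 0.448 times in control libraries.

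The alternative type VI chains were scarce. *Col6a4* had 33, 20 and 19 counts in cKO libraries, against 31, 45 and 26 in control libraries, a log2 fold change of -0.57 (SE 0.32, unadjusted p = 0.114 by edgeR). *Col6a5* had 3, 1 and 21 counts in cKO and 3, 3 and 6 counts in control libraries, and *Col6a6* had 6, 16 and 24 counts in cKO and 5, 8 and 5 counts in control libraries. Neither passed the filter. Without it, *Col6a6* passed the study's thresholds on the higher side (log2 fold change 1.30, unadjusted p = 0.0331, adjusted p = 0.775 by edgeR), where 1.07% of all genes did. It also passed without cKO replicate 1 (1.71, unadjusted p = 0.00875 by edgeR, with 1.25% of all genes higher), and it did not pass without control replicate 1, 2 or 3.

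Type VII collagen makes the anchoring fibrils that fasten epithelial basement membranes to the tissue below, and type XVII collagen is a transmembrane protein of hemidesmosomes, the junctions of basal epithelial cells on that membrane. *Col17a1* had 117, 79.5 and 422 CPM in cKO libraries, against 111, 100 and 332 CPM in control libraries. *Col7a1* had 121, 78.5 and 256 CPM in cKO libraries, against 107, 106 and 226 CPM in control libraries. Both were at least 2.13 times as high in replicate 3 as in the mean of replicates 1 and 2 of the same genotype. Their genotype differences were small against that spread, with log2 fold changes of 0.19 (SE 0.74) and 0.05 (SE 0.50).

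Most markers of dental epithelium and ameloblasts were also highest in replicate 3. Of 13 listed genes 12 were tested, none was called, and *Krt15* was at 0 in control replicate 2. In 8 of the 12, replicate 3 was the highest library within each genotype. *Amtn* was lowest there in both, and *Klk4*, *Odam* and *Epcam* had neither order. The share of all genes with replicate 3 highest within each genotype was not computed, here or for the lists below. That order is looser than both replicate 3 libraries lying above the other 4, found in 22.6% of all genes. *Klk4*, an enamel protease that odontoblasts express too, had 4.63, 3.07 and 53.7 CPM in cKO libraries, against 91.3, 90.3 and 89.7 CPM in control libraries (log2 fold change -2.15, unadjusted p = 0.0761 by edgeR). Without cKO replicate 3, *Klk4* and *Epcam* were called lower, and without replicate 3 of both genotypes *Amtn* as well. In these fits 6.89% and 7.55% of all genes were lower. The summed level of the list, carried by the enamel matrix genes *Amelx*, *Ambn* and *Enam*, was 7167, 2247 and 50100 CPM in cKO replicates 1, 2 and 3, against 7417, 2769 and 30380 CPM in control replicates 1, 2 and 3. *Krt5*, a keratin of basal epithelial cells, had 180, 174 and 776 CPM in cKO libraries, against 176, 126 and 521 CPM in control libraries. The 8 hemidesmosome genes, partners of type XVII collagen such as the laminin-332 chains and integrin alpha 6 beta 4, summed to 896, 656 and 2288 CPM in cKO libraries, against 1034, 938 and 1910 CPM in control libraries. Replicate 3 was highest within each genotype in 7 of these 8, and none of them passed the study's thresholds or an unadjusted p of 0.05 by edgeR, with a median log2 fold change of 0.19. The part of epithelial cells in the levels of *Col17a1* and *Col7a1* was not tested.

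Types VIII and X are short chains that assemble into lattices, type VIII in the basement membranes of the cornea and in vessel walls and type X in hypertrophic cartilage. *Col8a1* had 7.16, 6.67 and 19.7 CPM in cKO replicates 1, 2 and 3, against 4.08, 4.52 and 11.9 CPM in control replicates 1, 2 and 3. Each cKO library was above the control library of the same number, at 1.76, 1.48 and 1.66 times its level, although the ranges overlapped because both replicate 3 libraries were high. The labels number libraries within each genotype and state no pairs, so which libraries of replicates 1 and 2 belong together is assumed. Without pairing, the log2 fold change was 0.71 (SE 0.58, unadjusted p = 0.264 by edgeR). A replicate block, a term that compares libraries of the same number, gave 0.70 (unadjusted p = 0.00169, adjusted p = 0.0833 by edgeR), past the study's thresholds, where 2.05% of all genes were called higher with the block. It also passed them without control replicate 3 (1.37, with 1.59% of all genes higher) and without replicate 3 of both genotypes (0.69, adjusted p = 0.0743 by edgeR).

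*Col8a2*, the other type VIII chain, had 118, 97.2 and 84.4 CPM in cKO libraries, against 66.6, 71.2 and 115 CPM in control libraries. It was higher in cKO mDPCs in the pairs of replicates 1 and 2 (1.77 and 1.37 times) and lower in that of replicate 3 (0.735 times), with a log2 fold change of 0.25 (SE 0.24). Without replicate 3 of both genotypes the value was 0.65 (adjusted p = 0.0175 by edgeR), past the study's thresholds, where 4.49% of all genes were called higher at those thresholds. Limma voom with quality weights gave the same value of 0.65 over all 6 libraries (adjusted p = 0.0195), where 2.4% of all genes were higher at an adjusted p of 0.05. Per kilobase *Col8a1* stayed far below *Col8a2*, at 0.0391, 0.0442 and 0.150 times its level in cKO replicates 1, 2 and 3, against 0.0394, 0.0409 and 0.0666 times in control replicates 1, 2 and 3. *Col10a1* was near the floor with 8 to 13 counts per cKO library and 12 to 14 per control library, and shares its locus with *Nt5dc1*, whose reads cannot be told from it without strand.

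Type IX collagen is a FACIT with 1 chain each from *Col9a1*, *Col9a2* and *Col9a3*, best known from the surface of type II fibrils in cartilage. The 3 chains did not move together in these libraries. *Col9a1* had 19.3, 15.1 and 6.67 CPM in cKO replicates 1, 2 and 3, against 28.2, 28.8 and 11.4 CPM in control replicates 1, 2 and 3. Each cKO library stood below the control library of its own number, at 0.683, 0.526 and 0.583 times its level, while replicate 3 was low in both genotypes. The unpaired log2 fold change was -0.74 (SE 0.48, unadjusted p = 0.170 by edgeR). With the replicate block it was -0.75 (unadjusted p = 3.11e-04, adjusted p = 0.0422 by edgeR), a lower call by either criterion. The pairs of replicates 1 and 2 in that block are assumed, as said above. With that block 4.37% of genes tested were called lower at the study's thresholds and 0.799% at an adjusted p of 0.05. It was also called lower without control replicate 3 (-1.05, with 3.18% of all genes lower) and without replicate 3 of both genotypes (-0.72, adjusted p = 0.0217 by edgeR).

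*Col9a2* had 1031, 1092 and 539 CPM in cKO libraries, against 763, 870 and 655 CPM in control libraries. It was above control in the pairs of replicates 1 and 2 and below it in that of replicate 3, and its log2 fold change was 0.22 (SE 0.27). *Col9a3* had 89.5, 68.8 and 178 CPM in cKO libraries, against 124, 118 and 178 CPM in control libraries. It was lower in cKO replicates 1 and 2 and level with control in replicate 3 (0.721, 0.582 and 0.999 times), a log2 fold change of -0.32 (SE 0.37). Without cKO replicate 3 it was called lower (-0.83), where 6.89% of all genes were lower, as it was without replicate 3 of both genotypes (-0.61, adjusted p = 0.0365 by edgeR). Per kilobase, *Col9a1* was 0.0114, 0.00848 and 0.00757 times *Col9a2* in cKO libraries, against 0.0226, 0.0202 and 0.0107 times in control libraries, so that every cKO ratio but that of replicate 1 lay below every control ratio. The sequences before the starts of both genes are printed above.

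*Col2a1*, which encodes the chain of the fibrils that type IX collagen coats in cartilage, had 23.5, 12.2 and 11.1 CPM in cKO libraries, against 20.4, 21.7 and 10.8 CPM in control libraries (log2 fold change -0.18, SE 0.37). Markers of chondrocytes summed to 203, 201 and 124 CPM in cKO libraries, against 182, 193 and 175 CPM in control libraries, 6 of the 9 listed were tested and none was called. *Matn1*, a matrix protein of cartilage, was at 0 in cKO replicate 1 and control replicate 2 and at most 0.159 CPM in other cKO and 0.226 CPM in other control libraries.

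**Figure D4:**
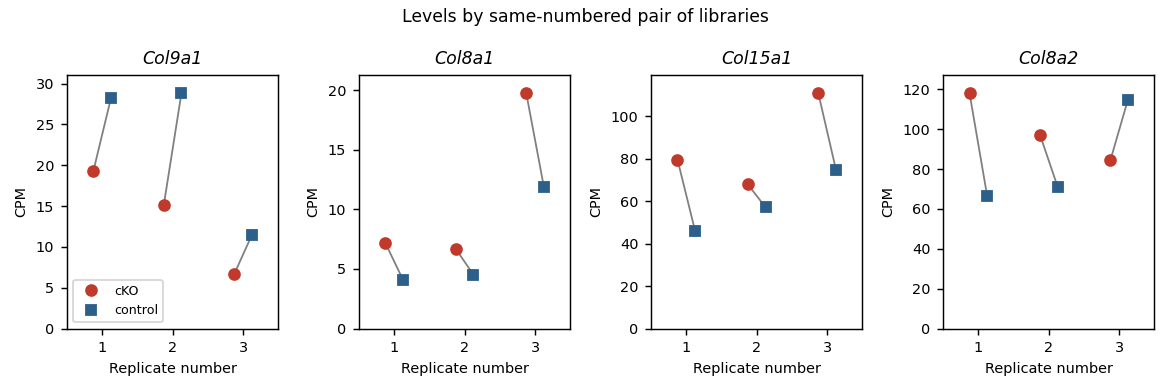
Levels by same-numbered pair of libraries. Each panel gives the CPM of 1 gene in cKO (red circles, left) and control (blue squares, right) libraries for replicate numbers 1, 2 and 3, joined within a pair. *Col9a1* is lower and *Col8a1* and *Col15a1* are higher in cKO in all 3 pairs, and *Col8a2* is higher in the pairs of replicates 1 and 2 and lower in that of replicate 3.

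Among the remaining FACIT chains, *Col12a1* and *Col14a1* encode molecules that bind fibrils of type I collagen. *Col12a1* had 626, 560 and 1032 CPM in cKO libraries, against 711, 807 and 1155 CPM in control libraries. It lay below control in all 3 pairs (0.880, 0.694 and 0.894 times), with a log2 fold change of -0.27 (SE 0.28), and was called lower without cKO replicate 3 (-0.59). *Col14a1* had 38.0, 39.3 and 44.5 CPM in cKO libraries, against 32.2, 31.3 and 55.8 CPM in control libraries (0.03, SE 0.24). *Col16a1*, whose product is found near fibrillin microfibrils and fine collagen fibrils, had 401, 271 and 267 CPM in cKO libraries, against 384, 399 and 358 CPM in control libraries. Both lower cKO values fell outside the control range, but cKO replicate 1 exceeded it, and the log2 fold change was -0.28 (SE 0.18).

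*Col22a1*, a FACIT known from tissue junctions such as that of muscle and tendon, had 21.5, 21.8 and 89.1 CPM in cKO libraries, against 20.6, 14.1 and 68.4 CPM in control libraries. Replicate 3 was 4.12 times the mean of replicates 1 and 2 in cKO and 3.95 times in control libraries, next to a log2 fold change of 0.36 between genotypes (SE 0.78). *Col19a1*, a FACIT of basement membrane zones, went the other way with 63, 59 and 5 counts in cKO libraries, against 37, 38 and 16 counts in control libraries (log2 fold change 0.40, SE 0.76). It was called higher without cKO replicate 3 (0.91, with 4.01% of all genes higher) and without replicate 3 of both genotypes (0.64, adjusted p = 0.155 by edgeR). *Col20a1* had 57, 37 and 125 counts in cKO libraries, against 74, 88 and 108 counts in control libraries (log2 fold change -0.36, SE 0.47). It was called lower by voom (-0.67), without cKO replicate 3 (-1.06) and without replicate 3 of both genotypes (-0.85), and it overlaps the transcript 9230112E08Rik, which held 192 to 227 counts in cKO and 204 to 229 counts in control libraries.

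The other transmembrane collagens differed in abundance and in steadiness. *Col23a1* had 611, 575 and 506 CPM in cKO libraries, against 548, 562 and 561 CPM in control libraries. Its log2 fold change was 0.02 with a 95% interval of -0.26 to 0.29, the narrowest of all members. *Col25a1*, needed in mice for motor nerves to reach their muscles, had 101, 116 and 35.0 CPM in cKO libraries, against 95.8, 81.5 and 51.9 CPM in control libraries (log2 fold change 0.14, SE 0.45), low in both replicate 3 libraries. *Col13a1*, whose product sits at cell adhesions and the neuromuscular junction, had 6.21, 4.76 and 11.7 CPM in cKO libraries, against 7.10, 7.62 and 7.13 CPM in control libraries (0.05, SE 0.33).

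The multiplexins *Col15a1* and *Col18a1* encode proteoglycan collagens of the basement membrane zone, and the end of the type XVIII chain is cut off as endostatin. *Col15a1* had 79.7, 67.9 and 111 CPM in cKO libraries, against 46.0, 57.2 and 75.0 CPM in control libraries. It was above control in every pair (1.73, 1.19 and 1.48 times) and had the smallest p of all members without reaching the threshold (log2 fold change 0.54, SE 0.24, 95% interval -0.03 to 1.10, unadjusted p = 0.0592, adjusted p = 0.666 by edgeR). It was called higher without cKO replicate 2 (0.68, with 0.49% of all genes higher) and without control replicate 3 (0.74), and voom gave 0.56 (adjusted p = 0.0420), just under the size threshold. The replicate block gave 0.53 (unadjusted p = 0.00144, adjusted p = 0.0789 by edgeR), again under that size, at a smaller p than that of *Col8a1*. *Col18a1* had 83.1, 58.1 and 216 CPM in cKO libraries, against 71.7, 87.2 and 153 CPM in control libraries (log2 fold change 0.20, SE 0.53), again with replicate 3 on top. *Slc19a1* overlaps *Col18a1* with 395 to 592 counts in cKO and 424 to 472 counts in control libraries.

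The last members fall outside these families. *Col26a1* had 114, 78.4 and 113 CPM in cKO libraries, against 96.2, 107 and 130 CPM in control libraries (log2 fold change -0.13, SE 0.18). *Col28a1*, known from the basement membrane of Schwann cells, had 64, 51 and 64 counts in cKO libraries, against 71, 73 and 40 counts in control libraries (-0.10, SE 0.28).

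Replicate number 3 separated more of these chains than genotype did, as it did over all genes tested. Replicate 3 was singled out from these same data, and 2 libraries against 4 separate more easily than 3 against 3. Over all genes, 7.98% had all cKO libraries below all controls and 7.26% had them above. In 12 of 31 chains (38.7%) both replicate 3 libraries lay above the other 4, against 22.6% of all genes tested. They were *Col4a1*, *Col4a2*, *Col6a3*, *Col7a1*, *Col8a1*, *Col9a3*, *Col12a1*, *Col14a1*, *Col17a1*, *Col18a1*, *Col20a1* and *Col22a1*. In 7 chains (22.6%), close to the 21.7% of all genes, both lay below the other 4: *Col2a1*, *Col4a5*, *Col4a6*, *Col9a1*, *Col9a2*, *Col19a1* and *Col25a1*. The other 12 showed neither order. Among the high chains the ratio of replicate 3 to the mean of replicates 1 and 2 was highest for *Col17a1* in cKO (4.30, control 3.15) and for *Col22a1* in control libraries (3.95). Among the low chains it was lowest in cKO libraries for *Col19a1* (0.0884 in cKO and 0.458 in control) and lowest in control libraries for *Col9a1* (0.387 in cKO and 0.401 in control).

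Several cell type markers moved with replicate 3 as well. Besides the epithelial genes given above, 8 of the 9 endothelial markers were highest in replicate 3 within each genotype, all but *Emcn*. As said there, the share of all genes with this order was not computed. All 9 endothelial markers were tested and none was called. They summed to 380, 397 and 984 CPM in cKO libraries, against 355, 400 and 606 CPM in control libraries. *Col4a1*, *Col4a2* and *Col18a1* have the same order of replicate 3 above the others. The 8 macrophage and osteoclast markers summed to 1407, 1746 and 694 CPM in cKO libraries, against 1106, 1232 and 817 CPM in control libraries. Of these 8, *Adgre1*, *C1qa*, *C1qb* and *Lyz2* were lowest in replicate 3 of each genotype, whereas *Ctsk*, *Acp5*, *Cd68* and *Csf1r* were not. *Ctsk*, the collagen-degrading protease of osteoclasts, had 171, 191 and 225 CPM in cKO libraries, against 217, 238 and 226 CPM in control libraries. The part of these cells in the levels of the chains was not tested.

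**Figure D5:**
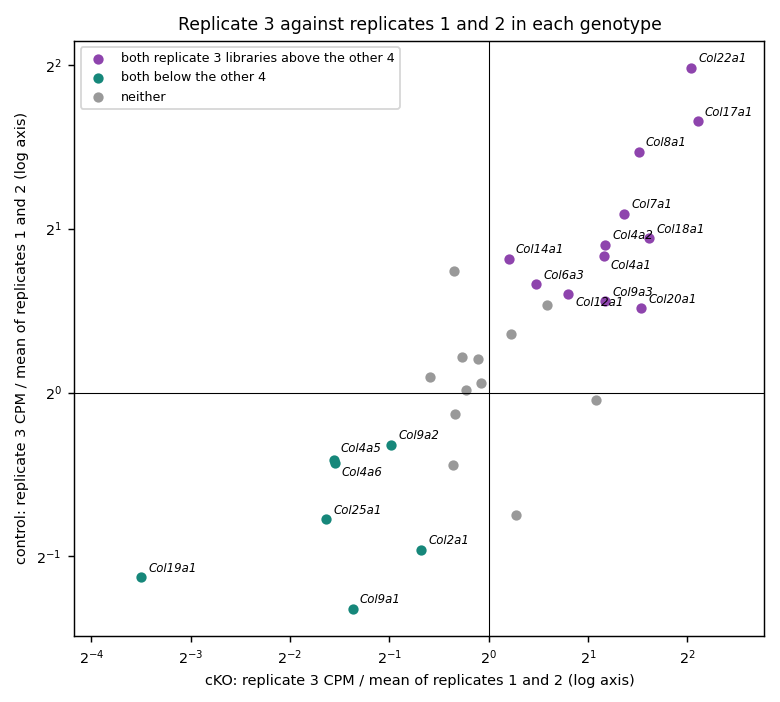
Replicate 3 against replicates 1 and 2 in each genotype. Points are the 31 chains; axes (log scale) give the CPM of replicate 3 over the mean of replicates 1 and 2, in cKO libraries across and in control libraries up. Purple marks the 12 chains with both replicate 3 libraries above the other 4, green the 7 with both below, and most chains lie on the same side of 1 in both genotypes.

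Set in same-numbered pairs, 6 chains (19.4%, all genes 20.1%) were lower in cKO mDPCs in each pair, namely *Col4a4*, *Col6a4*, *Col9a1*, *Col9a3*, *Col10a1* and *Col12a1*. Some of these rest on a slight difference in 1 pair. *Col9a3* stood at 0.999 times control in replicate 3. In replicate 1 the raw counts were 17 in cKO and 17 in control for *Col4a4*, and 13 and 12 for *Col10a1*. Only scaling put both below control there. In 3 chains (9.68%, all genes 22.7%), *Col8a1*, *Col15a1* and *Col22a1*, cKO was higher in each pair, and 22 were mixed. Only replicate 3 was set apart by the data, and the other pairs are assumed from matching numbers. The replicate block called *Col9a1* lower and *Col8a1* higher at the study's thresholds and, at an adjusted p of 0.05, *Col9a1* alone, with 0.176% of all genes higher at that threshold. Without replicate 3 of both genotypes the calls were *Col9a1*, *Col9a3* and *Col20a1* lower, where 7.55% of all genes were lower, and *Col8a1*, *Col8a2* and *Col19a1* higher, where 4.49% were higher. At an adjusted p of 0.05 they were *Col9a1* and *Col9a3* lower (4.48% of all genes) and *Col8a2* higher (2.33%). The libraries left in that fit were closer to each other within a genotype, as given above, so these p-values may be too small.

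Genes whose products bind these collagens were mostly without a call too. Of 23 basement membrane partners tested, 1 was lower, 0 were higher and the median log2 fold change was 0.10. Without cKO replicate 3, 3 were lower and 0 higher (median -0.30), and without replicate 3 of both genotypes 2 were lower and 2 higher (median -0.12). Over all genes, 2.71%, 6.89% and 7.55% were lower and 1.1%, 4.01% and 4.49% higher in these fits, in the same order. The lower one with all libraries was *Sparc*, a matricellular protein that binds fibrillar and type IV collagen. It had 2825, 3038 and 7923 CPM in cKO libraries, against 12450, 11490 and 13150 CPM in control libraries (log2 fold change -1.43, SE 0.42). *Tinagl1*, a basement membrane protein, had 9.84, 12.1 and 13.2 CPM in cKO libraries, against 6.68, 8.15 and 8.66 CPM in control libraries, and fell just under the size threshold (log2 fold change 0.58, unadjusted p = 0.0186 by edgeR). The laminin chain gene *Lama2* (-0.31) and *Pxdn* (-0.40), whose product cross-links type IV collagen, had an unadjusted p of 0.0323 and 0.0380 by edgeR without the size.

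Of 13 partners of FACIT and type VI collagens, 10 were tested, 1 was lower (2.71% of all genes) and 0 were higher (1.1%). Their median log2 fold change was -0.11. The lower call remained without cKO replicate 3, when *Aspn* was called higher, and without replicate 3 of both genotypes. *Bgn*, the proteoglycan biglycan that binds type VI collagen, was the lower one, at 775, 659 and 1192 CPM in cKO libraries, against 1691, 1646 and 1961 CPM in control libraries (log2 fold change -1.01, SE 0.24). *Matn2*, a matrilin, had an unadjusted p of 0.0167 by edgeR at a log2 fold change of -0.39. Of 13 collagen receptors and binding proteins, 12 were tested and 0 were called lower or higher (median log2 fold change -0.13). Without cKO replicate 3, and again without replicate 3 of both genotypes, *Cspg4*, *Itga2*, *Itga10* and *Itga11* were called lower. In these fits 6.89% and 7.55% of all genes were lower. *Mrc2*, an uptake receptor for collagen, had 788, 736 and 794 CPM in cKO libraries, against 1021, 1090 and 1130 CPM in control libraries, below control throughout but under the size threshold (log2 fold change -0.48, unadjusted p = 0.00376 by edgeR). *Itga10*, an integrin chain for collagen, had a log2 fold change of -0.91 (unadjusted p = 0.0507 by edgeR). *Itga1*, another such chain, went the other way, with 14.7, 14.0 and 21.1 CPM in cKO libraries, against 12.4, 11.25 and 13.1 CPM in control libraries. Its log2 fold change was 0.44 (unadjusted p = 0.060 by edgeR). Of the 12 receptors tested, 6 had a negative log2 fold change.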

How the data were processed

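Bulk RNA-seq was performed by the authors on mDPCs of 3 cKO and 3 control libraries. Per gene, the deposited table gives raw whole-number counts, made by the authors with HISAT2 2.2.1 and HTSeq 2.0.2 without regard to strand. StringTie 2.2.1 and DESeq2 1.40.2 are also named in the supplement, and Bowtie2 and GRCm39 in the submitters' processing notes. The same table carries the authors' own comparison, with a mean signal of normalized counts, the fold change, its log2 value and the p-values, and none of these was used. FPKM are named in the study's text and were not used here. 0 columns of per-sample values were left out, and 0 rows lacked a gene name.

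The members and gene lists were chosen with earlier results of these data known. Every member is named, and from each list of partner genes at most 4 with the smallest p. Among the receptors, those called without replicate 3 are named as well. Counts of all 31613 genes went into edgeR 4.0.16 (R 4.3.3), with low genes removed by filterByExpr (minimum count 10), TMM scaling and the robust two-sided quasi-likelihood F test without covariates, adjusted by Benjamini-Hochberg over 16519 genes. The alternatives tried were size factors by RLE, library sizes that leave out the 100 genes with most counts, an unfiltered table, at least 10 counts in every library, DESeq2 1.42.0, limma 3.58.1 voom with quality weights, a replicate block, single libraries removed, and replicate 3 removed from both genotypes. Replicate numbers come from the labels and column names, which number libraries within each genotype and state no pairs. Libraries of the same number deviated together from their group means (correlations over 16519 genes of 0.453, 0.465 and 0.663). The replicate block took them as pairs. However, cKO replicate 1 correlated with control replicate 2 as well (0.455), and cKO replicate 2 with control replicate 1 (0.380). Deviations within a group cancel, so an odd replicate 3 by itself raises the correlations among replicates 1 and 2. The correlations thus set replicate 3 apart, and the pairing of replicates 1 and 2 is assumed from matching numbers alone.

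The spread between libraries had a coefficient of variation of 25.3%, far above counting error at these depths except for the rarest chains. Exon lengths are from GENCODE (all 34 members matched by Ensembl ID). Positions of sequences are those of RefSeq on GRCm38.p6. The deposited positions share a start or end with that table for 47.4% of genes and with a GRCm39 annotation for 1.25%.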

Additional observations from a re-analysis of the deposited data

How the results depend on the processing

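The counts of chains called were 0 in each direction with size factors by RLE, with library sizes that leave out the 100 genes of most counts, with at least 10 counts in every library and by DESeq2. Shares of all genes with the same call are in brackets. At the study's thresholds the lower calls were 1 by voom (6.67%), 1 with the replicate block (4.37%) and 3 without replicate 3 of both genotypes (7.55%). The higher calls were 1 with no filter (1.07%), 2 by voom (2.69%), 1 with the block (2.05%) and 3 without replicate 3 of both genotypes (4.49%). With single libraries left out, lower calls ran from 0 to 3, most without cKO replicate 3 (6.89%). Higher calls ran from 0 to 2, most without control replicate 3 (1.59%). At an adjusted p under 0.05, the block gave 1 lower call (0.799%) and voom 2 higher calls (2.4%). Leaving out replicate 3 of both genotypes gave 2 lower (4.48%) and 1 higher (2.33%).

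No log2 fold change reversed under RLE, the other library sizes, either filter or DESeq2. With the block *Col7a1* was at -0.023 and *Col13a1* at -0.039. By voom the values were 0.054 for *Col26a1*, 0.067 for *Col6a2*, 0.019 for *Col2a1*, 0.034 for *Col4a5*, 0.024 for *Col6a3* and -0.24 for *Col13a1*. With single libraries or both replicate 3 libraries left out, the median over the chains ran from -0.19 to 0.039, lowest without cKO replicate 3. The chains that changed sign ran from -0.023 to 0.23 (*Col6a1*), -0.11 to 0.091 (*Col6a2*), -0.37 to 0.066 (*Col6a3*), -0.27 to 0.56 (*Col4a1*), -0.34 to 0.53 (*Col4a2*), -0.40 to 0.21 (*Col4a5*), -0.59 to 0.073 (*Col4a6*), -0.55 to 0.51 (*Col7a1*), -0.89 to 0.96 (*Col17a1*), -0.56 to 0.58 (*Col18a1*), -0.59 to 0.016 (*Col2a1*), -0.12 to 0.36 (*Col14a1*), -0.67 to 1.34 (*Col22a1*), -0.41 to 0.29 (*Col13a1*), -0.040 to 0.10 (*Col23a1*), -0.17 to 0.51 (*Col25a1*), -0.23 to 0.024 (*Col26a1*) and -0.39 to 0.027 (*Col28a1*). The cause was not tested.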
